A study of Rattus norvegicus with 18 samples.

Results

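The comparison set T cells collected on day 7 after heart transplantation in rats against T cells collected on day 3. It used 6 of the 18 arrays of the study, chosen by their labels: 3 day 7 and 3 day 3 T cell arrays, 1 for each of 3 treatments, paired by treatment. In the study, hearts of Wistar Furth (WF) rats were placed in the abdomen of ACI rats, adult males of inbred strains that differ in their class I transplantation antigens, and T cells and the grafted hearts were sampled on days 1, 3 and 7. Total RNA was measured on a rat expression microarray, with 1 array for each tissue, treatment and day. One group received cyclosporine by mouth on days 0 to 2, at a dose of 10 mg/kg/day that the labels call sub-therapeutic. A second group had the same course and 1 mg/kg of an allochimeric peptide, a class I molecule that mixes recipient and donor sequence, injected into the portal vein during the transplantation. The third group was transplanted and left untreated. No source used here names the organ from which the T cells came or the way they were purified. The labels list Wistar Furth as the strain of the T cell samples too, although the protocol names ACI rats as the recipients. No label says whether an array held 1 animal or a pool, or whether any 2 arrays share animals, so the p-values below measure only the spread between these samples.

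T cells that recognise a foreign graft are activated in lymphoid organs, divide, acquire granzymes, perforin and chemokines, and enter the graft over the following days. Naive T cells carry homing receptors instead and recirculate through lymph nodes and spleen. Cyclosporine blocks calcineurin, the phosphatase that moves NFAT transcription factors into the nucleus after T cell receptor signalling. A lymphoid cell preparation can also hold natural killer (NK) cells, B cells, plasma cells that secrete antibody, macrophages, mast cells and immature red cells, each known by its own transcripts.

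In this text a signal is the deposited intensity of a probe set, and a difference is day 7 minus day 3 of log2(signal + 16) within a treatment, so 1 unit is close to a doubling for well-lit probe sets and understates the change of dim ones. Signals of 3 arrays are given in the order cyclosporine, cyclosporine plus peptide, untreated. Array medians were 199.5 to 208.1 on day 7 and 194.5 to 207.4 on day 3, and the 3' to 5' ratio of the beta-actin control, which rises when RNA is broken, was 1.316 to 1.334 on day 7 and 1.271 to 1.348 on day 3. The defining T cell markers Cd3d, Cd3e and Cd3g, the chains of the receptor's signalling complex, read between 8237 and 11147 on day 7 and between 7506 and 11620 on day 3. Markers of macrophages and B cells were bright as well. The 3 macrophage markers read 1300 to 9028 on day 7 and 1650 to 9702 on day 3. Cd79b, a chain of the B cell receptor, read 2009 to 2766 on day 7 and 2118 to 3585 on day 3. None of the 49 defining markers with a probe set was at 0, but each array had only 36 to 49 of 31042 probe sets below 0. Pancreas markers read as low as 15.4 on day 7, so a value above 0 does not show that a cell type was present. Myh6, a heart muscle myosin, read 295, 338 and 261 on day 7, against 270, 288 and 248 on day 3. Amounts of RNA from a cell type follow both the number of those cells and the RNA in each, and these bulk arrays cannot tell fewer cells from less RNA per cell.

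The 6 arrays were alike, and few genes moved the same way in all 3 treatments. Of 18906 probe sets bright enough to test, 25 were higher (0.132%) and 3 lower (0.0159%) on day 7 at an adjusted p below 0.05 in a limma fit with treatment as a block, and 2428 had an unadjusted p below 0.05. By size alone, 12 probe sets were at least 1 unit higher in each of the 3 pairs (0.0635%) and 2 were at least 1 unit lower (0.0106%), the second of these being a dimmer probe set of Tnfrsf17. Counted as genes with 1 probe set each, 21 of 10293 rose (0.204%) and 3 fell (0.0291%), and at an unadjusted p below 0.05 9.5% were higher and 3.43% lower. The calls rest on that block and on its 2 residual degrees of freedom: without the block, with the day 1 arrays added, without a trend of the spread on brightness, or without the cyclosporine pair, limma called 0 probe sets, although the 28 (26 of 26 still tested without that pair) kept their direction and an unadjusted p below 0.05. Without the cyclosporine plus peptide pair it called 162. All but 1 of the 24 genes read higher, or lower, on every day 7 array than on every day 3 array, which was so for 6.69% of all tested genes in the upward and 2.91% in the downward direction. The exception is Cd7, whose difference was even but whose untreated arrays were dimmer on both days.

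**Figure D1:**
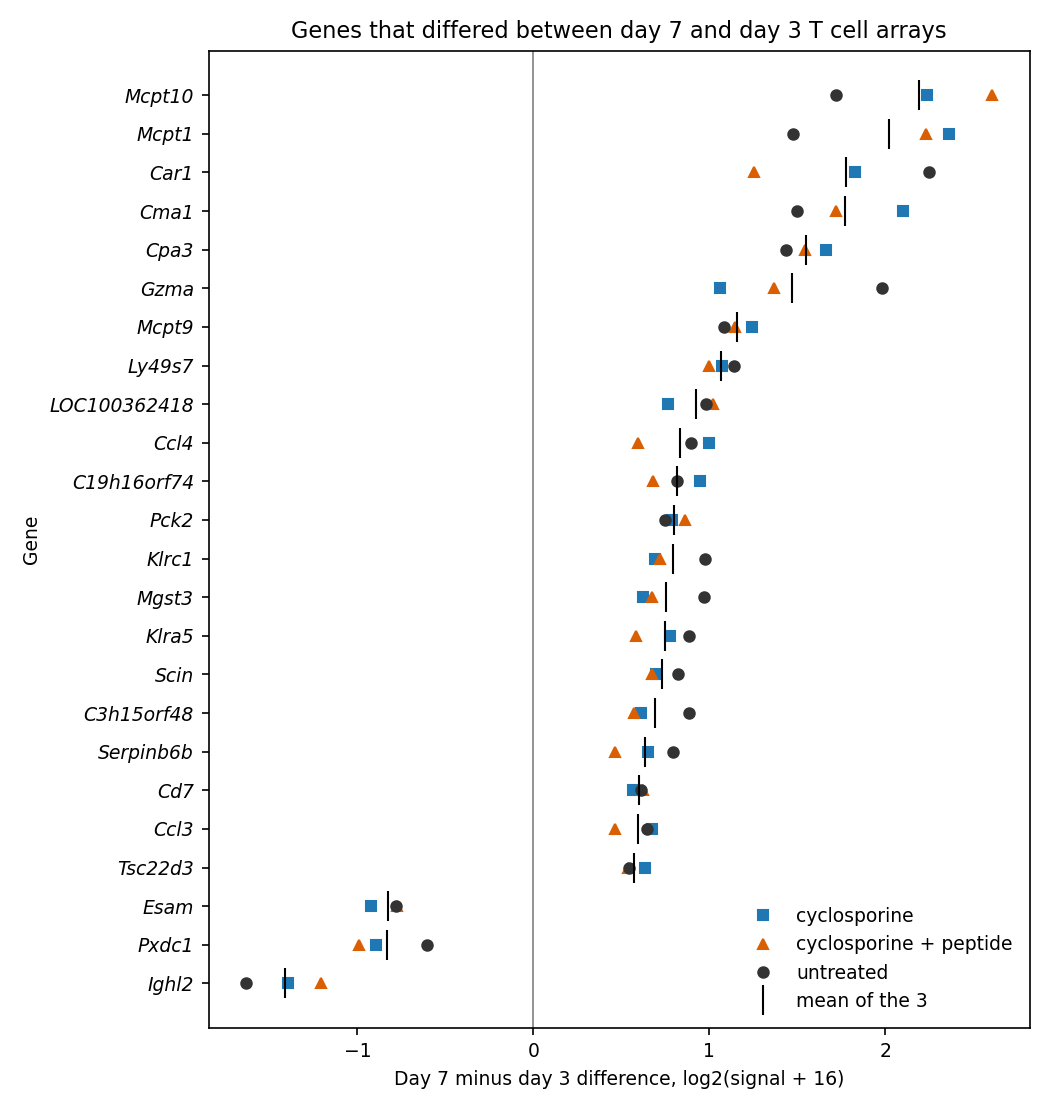
Differences of the 24 genes that passed the test, with the day 7 minus day 3 difference of log2(signal + 16) on the x axis, 1 symbol per treatment and a bar at the mean. The 3 treatments lie on the same side of 0 for each gene. Mcpt10 reached 2.19 at the top and Ighl2 fell to -1.41 at the bottom.

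The pairs differed in how far they shared their changes. Across the 18906 probe sets the differences of the cyclosporine pair correlated at r = 0.409 with those of the cyclosporine plus peptide pair and at 0.35 with those of the untreated pair, while the cyclosporine plus peptide and untreated pairs correlated at 0.081. These are descriptions across probe sets, which are not independent. The arrays did not group by day. The day 3 cyclosporine plus peptide array correlated at 0.9864 with the day 7 cyclosporine array and at 0.9841 with the day 7 array of its own treatment, but at 0.9797 with the day 3 cyclosporine array and at 0.9722 with the day 3 untreated array. The day 7 cyclosporine plus peptide array was likewise closer to the day 3 array of its treatment than to the day 7 cyclosporine array (0.9811) and the day 7 untreated array (0.9704), and it had the lowest correlations among the 6 arrays, at 0.9615 with the day 3 cyclosporine array and 0.9631 with the day 3 untreated array. The day 7 untreated array correlated at 0.9874 with the day 3 cyclosporine array and at 0.9871 with the day 3 untreated array, against 0.9868 with the day 7 cyclosporine array. Results that differ between the pairs are given below by treatment as well as by their mean.

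The largest rise was in proteases of mast cells, granule-filled cells of tissues that carry the high-affinity IgE receptor. Their granules hold chymases such as Cma1 and Mcpt1, which are serine proteases, and Cpa3, a carboxypeptidase stored with them. Of the 16 genes listed for mast cells and basophils, 15 had a probe set and 8 were bright enough to test, of which 5 rose. Among all tested genes 0.204% rose. Mcpt1 had signals of 1973, 2028 and 869 on day 7, against 372, 419 and 302 on day 3, so the lowest day 7 array was above the highest day 3 array. Its mean difference was 2.02 ± 0.16 (SE, 3 pairs), with a limma adjusted p = 0.0237, a rise of 4.06 times. The 3 differences behind this mean were 2.36, 2.23 and 1.48. Each SE in this text is limma's moderated standard error. It draws on the spread of all tested probe sets and is not the spread of the 3 pairs alone. Cpa3 read 963, 915 and 498 on day 7, against 293, 303 and 174 on day 3. Its difference varied little between treatments, at 1.66, 1.54 and 1.44, and averaged 1.55 ± 0.08 (SE, 3 pairs), with a limma adjusted p = 0.00984. Cma1 read 641, 756 and 300 on day 7, against 137, 218 and 95.9 on day 3, and its mean difference was 1.77 ± 0.13 (SE, 3 pairs), with a limma adjusted p = 0.0199. For each of these proteases the untreated array was the lowest of its day.

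Mcpt10, a further member of this protease family, was near the dim end on day 3 and read 367, 433 and 236 on day 7, against 65.2, 57.6 and 60.5 on day 3, a mean difference of 2.19 ± 0.19 (SE, 3 pairs), with a limma adjusted p = 0.0257. Mcpt9 completed the 5, with 480, 534 and 384 on day 7, against 194, 233 and 172 on day 3 and a difference of 1.16 ± 0.09 (SE, 3 pairs), with a limma adjusted p = 0.0199. Among the tested genes that did not pass, Gata2, a transcription factor of mast cells and of blood progenitors, read 304, 267 and 248 on day 7, against 186, 225 and 167 on day 3, without overlap but with a limma adjusted p = 0.248. A second probe set of Gata2, too dim to test, had differences of mixed sign, at -0.19, 0.12 and -0.04. The other 2 that did not pass were close to level: Tpsb2, a tryptase, differed by 0.09 and Hpgds, a prostaglandin D2 synthase that macrophages also make, by -0.12.

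The 7 dimmer genes were not tested, and 4 of them were brighter on every day 7 array than on any day 3 array. Among all tested genes this was so for 6.69%, and no such share was counted for dim genes. Mcpt8, a protease of basophils, read 118, 148 and 119 on day 7, against 43.6, 52.6 and 68.4 on day 3. Fcer1a, the IgE-binding chain of the receptor, read 138, 165 and 109 on day 7, against 67.4, 68.7 and 58.7 on day 3. Hdc, which makes histamine, read 136, 166 and 113 on day 7, against 79.4, 69.3 and 69 on day 3. Ms4a2, the receptor's beta chain, showed the smallest separation of the 4, with 91.8, 80.6 and 58.9 on day 7, against 42.5, 48.2 and 46.7 on day 3. A second probe set of Ms4a2, also too dim to test, had differences of mixed sign, at -0.29, -0.14 and 0.30. Kit, the stem cell factor receptor that mast cells need, overlapped between days at 66.4, 70.6 and 61.5 on day 7, against 59, 51.6 and 65.9 on day 3, and so did the tryptase Tpsab1 at 95.6, 97.9 and 72.6 on day 7, against 96.5, 114 and 112 on day 3. Since a gene could be bright enough through its day 7 arrays alone, neither the share of the tested genes that rose nor their median carries weight of its own. The list's summed signal was 5290 to 8542 on day 7 and 3932 to 4332 on day 3.

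The chymase-like proteases lie close together: on GRCr8, Cma1 is on chromosome 15 from 33387351 to 33390133, Mcpt9 on chromosome 15 from 33827348 to 33830396, Mcpt1 on chromosome 15 from 33841606 to 33844174 and Mcpt10 on chromosome 15 from 33885728 to 33888787. They are related in sequence, and probes of one may bind transcripts of another, so their rises are not independent measurements. Cpa3 is unrelated to them and lies on chromosome 2 from 104641619 to 104673253. The upstream sequences of Mcpt1, Cma1 and Cpa3, 3 of the 5 genes that rose, are shown because these genes moved together. Each is the 250 bases before the transcription start in RefSeq (GRCr8), written 5′ to 3′ on the gene's own strand. The start used there for Cpa3 lies a few bases inside the gene's annotated end. Capitals mark AGATAA or TGATAA, letters that GATA factors such as Gata2 can bind, and TATAAA, the TATA box, each searched on both strands.
Mcpt1, chr15:33841356-33841605, plus strand: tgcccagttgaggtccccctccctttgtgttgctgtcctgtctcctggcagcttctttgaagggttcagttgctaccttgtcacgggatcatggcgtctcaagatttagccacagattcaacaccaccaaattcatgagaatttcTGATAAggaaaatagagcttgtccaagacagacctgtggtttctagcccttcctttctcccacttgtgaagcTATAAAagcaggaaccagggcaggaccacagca
Cma1, chr15:33390134-33390383, minus strand: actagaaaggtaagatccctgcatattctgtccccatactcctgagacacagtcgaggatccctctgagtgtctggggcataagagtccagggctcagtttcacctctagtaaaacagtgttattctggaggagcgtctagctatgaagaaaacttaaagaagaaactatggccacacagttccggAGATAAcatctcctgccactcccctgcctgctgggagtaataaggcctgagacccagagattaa
Cpa3, chr2:104673238-104673487, minus strand: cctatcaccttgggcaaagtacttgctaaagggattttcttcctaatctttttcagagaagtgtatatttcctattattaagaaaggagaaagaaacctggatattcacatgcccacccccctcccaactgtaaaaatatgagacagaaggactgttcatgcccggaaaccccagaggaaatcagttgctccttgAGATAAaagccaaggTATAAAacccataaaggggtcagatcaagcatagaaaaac
AGATAA begins 64 bases before the start in Cma1 and 55 bases before it in Cpa3, and TGATAA begins 105 bases before it in Mcpt1. TATAAA begins 33 bases before the start in Mcpt1 and 40 bases before it in Cpa3, without overlap with the other motifs. Of 33469 promoter windows of this length in the table, 16.9% held AGATAA or TGATAA and 12.9% held TATAAA. A match of letters describes the sequence and is no measurement of binding.

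**Figure D2:**
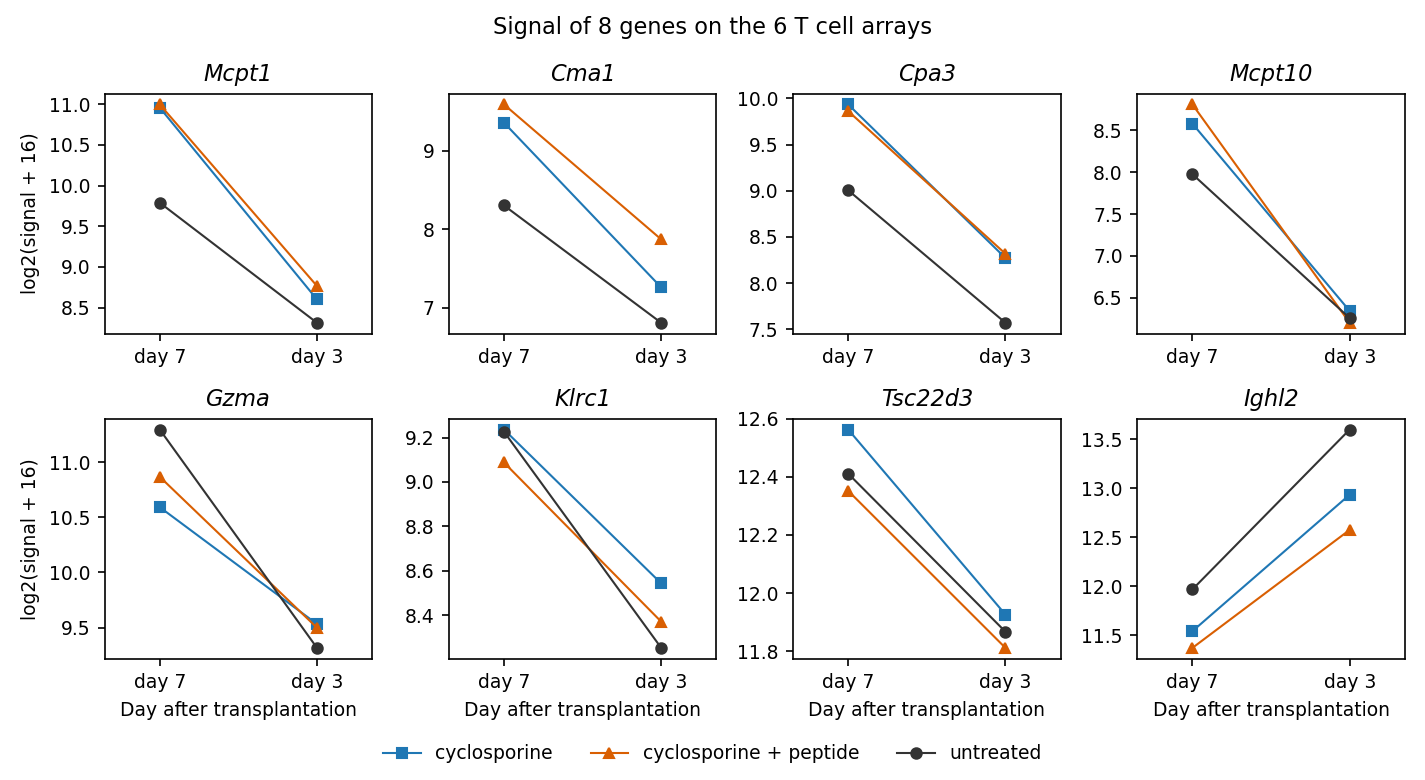
Level of 8 genes, as log2(signal + 16) on the y axis (each panel has its own range), on day 7 (left) and day 3 (right), with 1 line per treatment joining its 2 arrays. The first 7 genes were higher on each day 7 array than on each day 3 array, and Ighl2 was lower.

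Genes of the cytotoxic granule formed the second group that was brighter on day 7. Of 17 listed genes, 15 had a probe set, 14 were tested and, beside 0.204% of all genes, 1 rose, Gzma. Its product, granzyme A, is a serine protease that killer lymphocytes release into their targets. Gzma read 1528, 1853 and 2500 on day 7, against 724, 707 and 621 on day 3, with a difference of 1.47 ± 0.16 (SE, 3 pairs), with a limma adjusted p = 0.0446. The rise was largest in the untreated pair, at 1.06, 1.37 and 1.98. Of the 14 tested genes 11 did not overlap between days, all of them brighter on day 7, beside 6.69% of all genes. The median difference of the list was 0.66, against 0.02 for all genes.

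The granule genes that did not pass also had their values ordered by day. Gzmk, another granzyme, read 5891, 4396 and 7304 on day 7, against 3292, 2731 and 2140 on day 3, a mean difference of 1.09 with a limma adjusted p = 0.166. Klrg1, a receptor of antigen-experienced killer cells, read 754, 580 and 713 on day 7, against 359, 385 and 256 on day 3 (limma adjusted p = 0.125). Nkg7, a granule membrane protein, read 5680, 4337 and 5566 on day 7, against 3729, 2854 and 2365 on day 3 (limma adjusted p = 0.125). For Gzmk and Nkg7 the untreated array was the lowest of day 3. Cst7, a protease inhibitor of these granules, differed by 0.90, Faslg, the death ligand of killer cells, by 0.67, and Gzmm by 0.66, with limma adjusted p = 0.0806, 0.0574 and 0.0538. Ccl5, a chemokine stored by memory killer cells, differed by 0.66, Eomes, a transcription factor of killer cells, by 0.57, Gzmb by 0.47 and Ctsw, a protease of these cells, by 0.45, none of them past the test. Eomes had a second, dimmer probe set with differences of mixed sign, at 0.26, -0.02 and 0.71. Perforin (Prf1), which lets granzymes enter the target, stood outside this pattern, at 6426, 5178 and 6362 on day 7, against 6117, 5508 and 4949 on day 3, with overlap between the days. Ifng, the cytokine of these cells, was dim and overlapped as well, at 159, 185 and 178 on day 7, against 187, 91.2 and 114 on day 3.

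NK cell receptors were brighter on day 7 by smaller steps. Of 19 listed genes 14 were tested, 1 rose and 6 did not overlap, all of these brighter on day 7, beside 0.204% and 6.69% of all genes, and the median difference was 0.35. The one that rose was Klrc1, the inhibitory receptor NKG2A, with 587, 528 and 583 on day 7, against 357, 315 and 289 on day 3 and a difference of 0.80 ± 0.09 (SE, 3 pairs), with a limma adjusted p = 0.0454. Klrc2, its activating relative, differed by 0.80 with a limma adjusted p = 0.12. Their partner chain Klrd1 (CD94) differed by 0.36 and Klrb1a, a lectin-like receptor, by 0.57, both without overlap and neither past the test. Klrk1 (NKG2D), the activating receptor that CD8 T cells share, read 3109, 3152 and 2757 on day 7, against 3146, 2561 and 2588 on day 3, with overlap. Ncr1, the receptor closest to an NK-only marker, overlapped too: it read 1085, 636 and 917 on day 7, against 827, 570 and 454 on day 3.

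Outside the list, 3 more genes of this region rose. Ly49s7 and Klra5 encode lectin-like receptors of the Ly49 family. Ly49s7 read 359, 331 and 313 on day 7, against 163, 158 and 133 on day 3, with an even difference of 1.07 ± 0.10 (SE, 3 pairs), with a limma adjusted p = 0.0348. Klra5 read 1030, 955 and 849 on day 7, against 595, 631 and 452 on day 3, with 0.75 ± 0.08 (SE, 3 pairs), with a limma adjusted p = 0.0438. LOC100362418, to which no role is given here, read 652, 651 and 624 on day 7, against 376, 313 and 308 on day 3, with 0.92 ± 0.08 (SE, 3 pairs), with a limma adjusted p = 0.0309. On GRCr8, Klra5 is on chromosome 4 from 166491210 to 166556087, which holds the place of Ly49s7 within it, Klrc1 is on chromosome 4 from 164828163 to 164838446 and LOC100362418 on chromosome 4 from 164251108 to 164267200. Receptors of this cluster are closely related, so a probe set may read several of them.

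A pair of inflammatory chemokines also rose. Ccl4 read 2177, 2011 and 2104 on day 7, against 1080, 1325 and 1122 on day 3, a difference of 0.83 ± 0.08 (SE, 3 pairs), with a limma adjusted p = 0.0438. Ccl3 read 1392, 1440 and 1298 on day 7, against 867, 1040 and 823 on day 3, a difference of 0.60 ± 0.07 (SE, 3 pairs), with a limma adjusted p = 0.0454. These were 2 of the 25 tested chemokines and chemokine receptors, while 0.204% of all genes rose. The list's median difference was 0.03. At an unadjusted p below 0.05 in limma, 9 of the 25 were higher and 1 lower, beside 9.5% and 3.43% of all genes. Without overlap, 7 were higher and 1 lower, beside 6.69% and 2.91% of all genes. Cxcr3, a receptor of effector T cells, did not overlap, at 5207, 4748 and 5241 on day 7, against 4332, 4076 and 3360 on day 3, and did not pass (limma adjusted p = 0.221). Ccr1, a receptor for Ccl3, was dim and read the other way, at 125, 135 and 88.1 on day 7, against 210, 264 and 171 on day 3 (limma adjusted p = 0.129). Cx3cr1, a receptor of patrolling monocytes and of cytotoxic lymphocytes, read 228, 247 and 345 on day 7, against 153, 124 and 102 on day 3, and S1pr5, which lets NK cells leave tissues, differed by 0.71, with limma adjusted p = 0.189 and 0.257.

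Genes of T cell identity stayed close to level. Among 18 tested T cell genes 0 passed in limma, 15 had a mean above 0, and the median difference was 0.05. Of all 10293 genes 6032 had a mean above 0. Cd3e, the chain of the receptor complex most used to define T cells, read 9739, 9497 and 9566 on day 7, against 9586, 9938 and 9528 on day 3, with the days overlapping. Cd8a, the coreceptor of killer T cells, was higher on each day 7 array, at 7727, 8146 and 7347 on day 7, against 6606, 7121 and 5998 on day 3, but its difference of 0.24 did not pass (limma adjusted p = 0.179). Cd8b differed by 0.37 and Cd4, the coreceptor of helper T cells, by -0.21, with limma adjusted p = 0.219 and 0.3. Cd2, an adhesion receptor, and Cd96 were higher on each day 7 array, by 0.25 and 0.35, and did not pass either. At an unadjusted p below 0.05, 4 of the 18 were higher and 2 lower, beside 9.5% and 3.43% of all genes.

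Of the 9 tested genes of naive and recirculating T cells, 9 had a mean below 0, 0 passed in limma and 2 were lower at an unadjusted p below 0.05. Of all 10293 genes 4258 had a mean below 0, and 3.43% were lower at that p. The sizes were small: S1pr1, the receptor that lets T cells leave lymph nodes, differed by -0.10 and Satb1, a chromatin organiser of naive cells, by -0.16, both without overlap. Igfbp4 had the largest difference of the 3 genes without overlap, at -0.28 (limma adjusted p = 0.298). Of all genes 2.91% were lower without overlap. Regulatory T cell, helper T cell and activation genes gave medians of 0.02, 0.03 and 0.16, with 0 genes past the limma test. At an unadjusted p below 0.05, 2 of 8, 2 of 8 and 3 of 11 tested genes were higher, beside 9.5% of all genes.

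Genes of calcineurin and NFAT, the pathway that cyclosporine blocks, had a median near 0. Of 16 tested calcineurin and NFAT genes 0 passed in limma, and their median difference was 0.01. At an unadjusted p below 0.05, 5 were higher and 1 lower, beside 9.5% and 3.43% of all genes. Ppp3cc, a catalytic subunit of calcineurin, read 268, 286 and 250 on day 7, against 178, 201 and 213 on day 3 (limma adjusted p = 0.261). Tnfrsf9 (4-1BB), a receptor that appears after activation, differed between treatments: its differences were 0.59, 1.05 and -0.12. With 1 array per treatment and day, such differences between treatments have no replicate check.

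Genes of antibody-making cells were mostly dimmer on day 7. Ighl2, annotated by its symbol as an immunoglobulin heavy chain gene, was the one among them that fell. It read 2960, 2628 and 3984 on day 7, against 7808, 6082 and 12392 on day 3, a difference of -1.41 ± 0.08 (SE, 3 pairs), with a limma adjusted p = 0.00984, and the untreated array was the brightest of its day on both days. Of 12 tested plasma cell genes 0 passed in limma and 8 were lower at an unadjusted p below 0.05, beside 3.43% of all genes. Of the same 12, 10 were lower in all 3 treatments and 7 did not overlap, beside 12.1% and 2.91% of all genes. The lowest limma adjusted p were 0.125, 0.211 and 0.216. Tnfrsf17, the survival receptor BCMA, read 142, 148 and 149 on day 7, against 252, 312 and 492 on day 3. Mzb1, which helps assemble antibody, read 1104, 1317 and 1101 on day 7, against 1901, 2357 and 5806 on day 3. Jchain, which links antibody units, read 3048, 3750 and 3333 on day 7, against 4980, 4957 and 9729 on day 3. In each the day 3 untreated array stood above the other 5.

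That array set most of the size of the group. The plasma cell medians were -0.28, -0.23 and -1.56, and without the untreated pair the median was -0.24, against -0.67 with it. Sdc1, the surface proteoglycan that marks plasma cells, showed this most clearly, at 200, 189 and 193 on day 7, against 213, 225 and 658 on day 3. Txndc5 and Fkbp11, folding enzymes abundant in these cells, had differences of -0.62, -0.38 and -1.80 and of -0.41, -0.20 and -1.58. Outside the list, Iglc1, a light chain constant gene, read 2057, 2218 and 1686 on day 7, against 2965, 3465 and 5546 on day 3, and Pou2af1, a coactivator of B cells and plasma cells, differed by -0.66, neither past the test. The transcription factors of the list gave unlike values: Xbp1, which drives the secretory programme, differed by -0.55 without overlap, while Prdm1, which many activated T cells also make, differed by 0.01.

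Genes of the unfolded protein response, which serve secretion in the endoplasmic reticulum, read the same way. Of 25 tested 0 passed in limma, 12 were lower at an unadjusted p below 0.05, 16 were lower in all 3 treatments and 8 did not overlap. Over all genes the shares were 3.43% lower at that p, 12.1% lower in all 3 treatments and 2.91% lower without overlap. The medians were -0.13, -0.08 and -0.53, again deepest in the untreated pair, and the median without that pair was -0.10. Pdia4, a disulphide isomerase, read 1099, 989 and 1196 on day 7, against 1305, 1299 and 2890 on day 3, and Hsp90b1, an endoplasmic reticulum chaperone, read 3171, 2426 and 3412 on day 7, against 3976, 3216 and 7220 on day 3. Hspa5 (BiP), the main chaperone of this response, differed by -0.29. Ddit3, the transcription factor made under lasting stress, was on the other side, at 0.26. The plasma cell list's summed signal was 21198 to 23458 on day 7 and 25550 to 45373 on day 3, and its part in the unfolded protein response values was not tested.

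B cell genes were lower in the treated pairs but not in the untreated pair. Their medians were -0.24, -0.59 and 0.14, so the treated pairs and the untreated pair lay on opposite sides of 0. Of 14 tested genes 12 had a mean below 0, 0 passed in limma and 5 were lower at an unadjusted p below 0.05. Of all 10293 genes 4258 had a mean below 0, and 3.43% were lower at that p. Ms4a1 (CD20) read 3766, 2984 and 3554 on day 7, against 4582, 5035 and 3155 on day 3. Ebf1, a transcription factor that B cells need, read 472, 312 and 365 on day 7, against 624, 829 and 250 on day 3. Cr2, the complement receptor of mature B cells, had differences of -0.59, -1.18 and 0.33. Cd22, an inhibitory receptor, and 2 others of the 14 did not overlap, on the lower side, beside 2.91% of all genes.

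**Figure D3:**
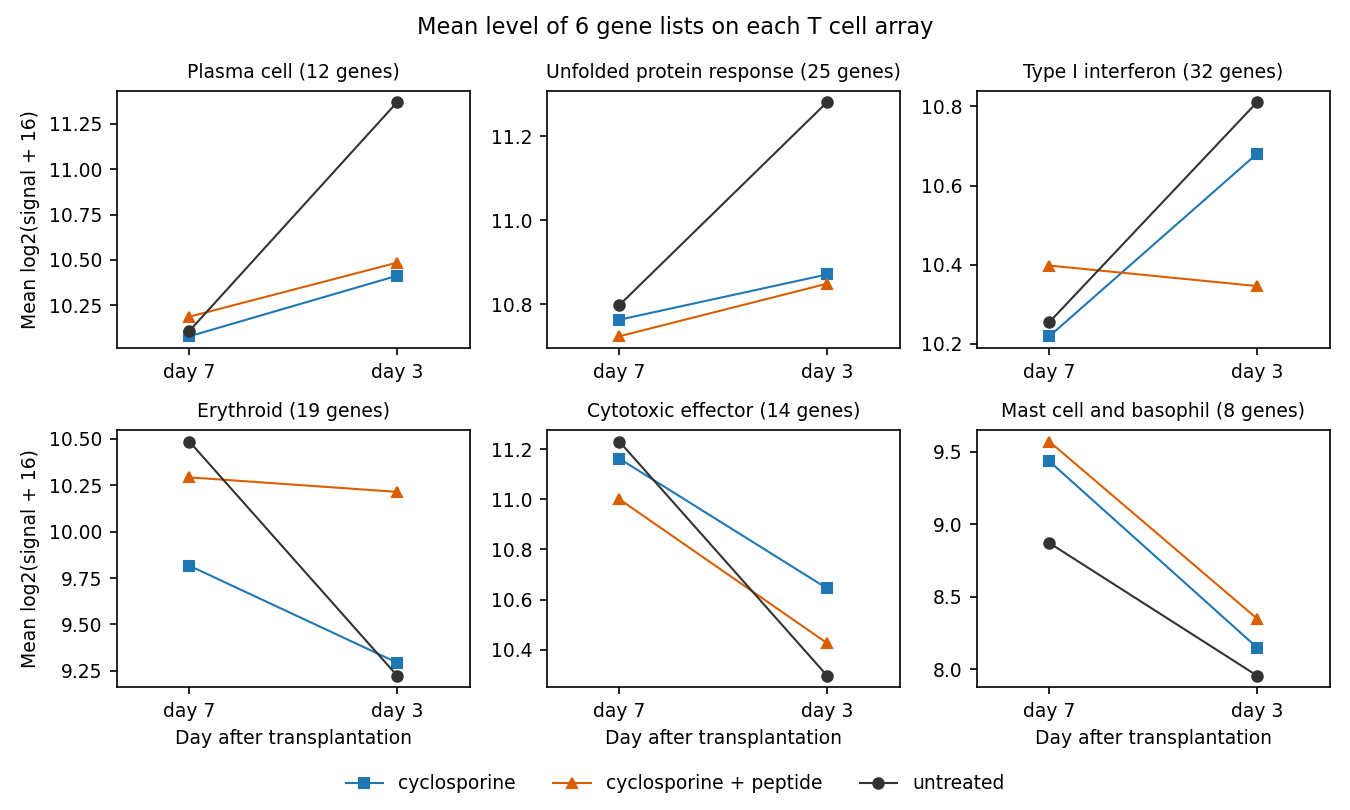
Mean level of the tested genes of 6 lists, as mean log2(signal + 16) on the y axis (each panel has its own range), on day 7 (left) and day 3 (right), with 1 line per treatment. The untreated day 3 array is the highest for plasma cell and unfolded protein response genes, and the day 3 cyclosporine plus peptide array lies near the day 7 arrays for type I interferon and erythroid genes.

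Red cell genes had higher means on day 7, unevenly between treatments. Of 30 listed genes 23 had a probe set, 19 were tested, each with a mean above 0, and 1 rose, Car1. Of all 10293 genes 6032 had a mean above 0, and 0.204% rose. Among the 19, 11 were higher in all 3 treatments, 8 were of mixed sign and 3 were higher without overlap. Over all genes 24.6% were higher in all 3 treatments and 6.69% higher without overlap. Car1, the carbonic anhydrase of red cells, read 1208, 1737 and 2433 on day 7, against 328, 719 and 499 on day 3, a difference of 1.78 ± 0.17 (SE, 3 pairs), with a limma adjusted p = 0.0348. The medians of the list were 0.48, 0.10 and 1.32. Ahsp, a chaperone of alpha globin, read 1109, 2249 and 2733 on day 7, against 395, 1551 and 435 on day 3, and Slc4a1, the anion exchanger of the red cell membrane, read 427, 729 and 984 on day 7, against 290, 797 and 182 on day 3. Both were already bright on the day 3 cyclosporine plus peptide array. Alas2, another red cell marker, had differences of 0.54, -0.63 and 0.89 (limma adjusted p = 0.679). The erythroid transcription factors Tal1, Klf1 and Gata1 differed by 1.01, 0.81 and 0.81, none past the test. A second, dimmer probe set of Tal1 read the other way, with differences of -0.18, -0.20 and -0.21. Rhag, a red cell ammonium channel that was too dim to test, read 90, 262 and 505 on day 7, against 21.3, 95.7 and 36.5 on day 3. Hbb, the beta globin gene, was near the top of the scale on all 6 arrays and differed by 0.11. The list's summed signal ranged from 34856 to 44204 on day 7 and from 26754 to 43813 on day 3. In the cyclosporine plus peptide pair the sum was 41978 on day 7, against 43813 on day 3.

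Defensin genes were brightest on the untreated arrays. Np4, a neutrophil defensin, read 109, 204 and 762 on day 7, against 33.5, 83.3 and 188 on day 3, and its mean difference of 1.48 missed the threshold (limma adjusted p = 0.0645). RatNP-3b, a second one, differed by 1.56 with a limma adjusted p = 0.125. Defa5, which was too dim to test, read 59.1, 118 and 609 on day 7, against 3.4, 26.2 and 105 on day 3. All 3 overlapped between days, with the untreated array the brightest of both. S100a8 and S100a9, which neutrophils hold in quantity, differed by 0.17 and 0.17. The defensins are close relatives, so these values are not independent.

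**Figure D4:**
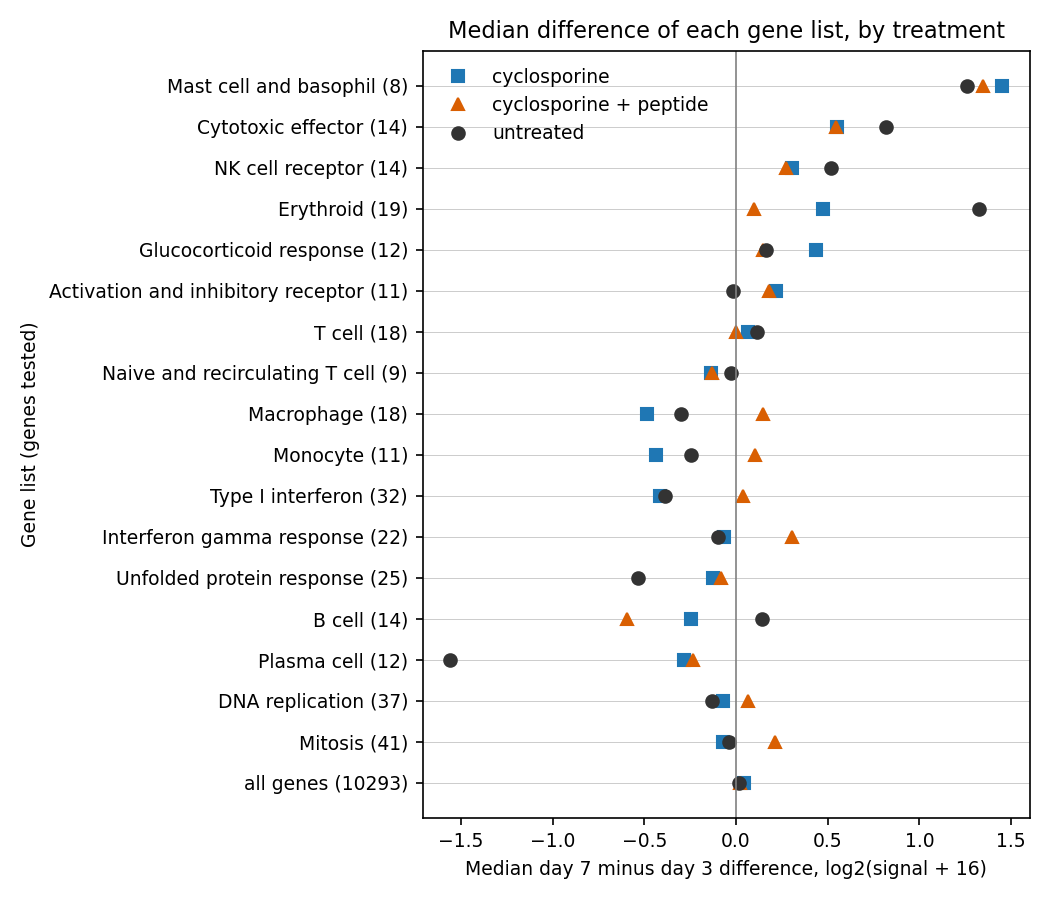
Median day 7 minus day 3 difference of log2(signal + 16), on the x axis, for 17 gene lists and for all genes, with 1 symbol per treatment and the number of tested genes in brackets. The 3 symbols lie together at 1.26 to 1.45 for mast cell genes and spread from -1.56 to -0.23 for plasma cell genes. The mast cell medians cover the 8 tested genes, which could be bright enough through their day 7 arrays alone.

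Type I interferon genes, the antiviral genes that cells switch on through the interferon alpha and beta receptor, had lower means on day 7, unevenly between treatments. Of 32 tested genes 31 had a mean below 0, 0 passed in limma, 15 were lower at an unadjusted p below 0.05 and 8 did not overlap. Of all 10293 genes 4258 had a mean below 0, 3.43% were lower at that p and 2.91% were lower without overlap. The medians were -0.41, 0.04 and -0.39. Usp18, which dampens interferon signalling, read 638, 695 and 570 on day 7, against 1284, 727 and 1536 on day 3. Mx2, an antiviral GTPase, read 835, 938 and 814 on day 7, against 1644, 976 and 1870 on day 3. Irf7, which amplifies the response, read 2220, 3053 and 2298 on day 7, against 4284, 3110 and 4682 on day 3. For these 3 genes the day 3 cyclosporine plus peptide array was the lowest of day 3, close to the level of day 7, whereas the other pairs differed by -1.41 to -0.94. Isg15, a ubiquitin-like modifier, had differences of -0.99, 0.19 and -1.40, and Bst2, a viral tether, of -0.38, 0.54 and -0.59. Ifit1 was the listed gene with the lowest p, with differences of -0.62, -0.33 and -0.69 and a limma adjusted p = 0.134. Rsad2 ran apart from the rest, at -0.40, -0.55 and 0.22.

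Interferon gamma response genes did not follow them: 0 of 22 passed in limma, 0 had an unadjusted p below 0.05, and the medians were -0.07, 0.31 and -0.10. Tap2, a peptide transporter of antigen presentation that is not among these 22, was brighter on day 7 in all 3 pairs. Its differences were 0.55, 0.94 and 0.30, with a limma unadjusted p = 0.00158 and adjusted p = 0.179.

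Macrophage and monocyte lists split by treatment as well. The 18 macrophage genes gave medians of -0.48, 0.15 and -0.30, with 0 past the limma test and 6 lower at an unadjusted p below 0.05. Mrc1, the mannose receptor, read 1064, 1259 and 1476 on day 7, against 1661, 1454 and 2247 on day 3, with overlap, and Cd163, the haemoglobin scavenger receptor, had differences of -0.54, -0.04 and -0.52. Cd14, a coreceptor for bacterial lipid, had differences of -0.53, 1.25 and -0.63. The list's summed signal was 56300 to 76658 on day 7 and 68076 to 93448 on day 3. The monocyte medians were -0.43, 0.11 and -0.25, with 0 of 11 past the limma test and, at an unadjusted p below 0.05, 1 higher and 3 lower. Over all genes the shares at that p were 9.5% higher and 3.43% lower.

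Genes induced by glucocorticoids included one that rose evenly. Tsc22d3 (GILZ), which glucocorticoids switch on in lymphocytes, read 6034, 5211 and 5430 on day 7, against 3875, 3578 and 3719 on day 3, a difference of 0.57 ± 0.05 (SE, 3 pairs), with a limma adjusted p = 0.0237. Sgk1, a kinase, and Klf9, a transcription factor, both known targets of the glucocorticoid receptor, were higher on every day 7 array, by 0.40 and 0.37, and did not pass (limma adjusted p = 0.125 and 0.118). For Klf9, a second tested probe set had differences of mixed sign, at 0.63, 0.56 and -0.02 (limma adjusted p = 0.334). The 12 tested genes had a median of 0.25, and 8 of them were higher in all 3 treatments, beside 24.6% of all genes.

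The remaining genes that rose have different roles. Serpinb6b, an intracellular inhibitor of serine proteases, read 5016, 5280 and 5211 on day 7, against 3181, 3825 and 3000 on day 3, a difference of 0.64 ± 0.07 (SE, 3 pairs), with a limma adjusted p = 0.0446. Cd7, a surface protein of T and NK cells, read 7488, 7714 and 4701 on day 7, against 5049, 4998 and 3065 on day 3, with an even difference of 0.60 ± 0.04 (SE, 3 pairs), with a limma adjusted p = 0.0199. Scin, which cuts actin filaments when calcium rises, read 784, 702 and 627 on day 7, against 476, 434 and 347 on day 3, with 0.73 ± 0.07 (SE, 3 pairs), with a limma adjusted p = 0.0384. Pck2, the mitochondrial enzyme that makes phosphoenolpyruvate, read 345, 392 and 450 on day 7, against 194, 209 and 261 on day 3, with 0.80 ± 0.09 (SE, 3 pairs), with a limma adjusted p = 0.0454; its second probe set differed by 0.60 and did not pass. Mgst3, a membrane glutathione enzyme, differed by 0.76, C3h15orf48, a small mitochondrial protein, by 0.69, and C19h16orf74 by 0.82. Hacd4, an enzyme of long fatty acids, was called at 1 of its 2 probe sets, with 1.13, while the brighter probe set differed by 0.79 and did not pass (limma adjusted p = 0.131). The other 3 called probe sets have no gene symbol or several and are not named.

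Besides Ighl2, a pair of genes fell. Esam, an adhesion molecule of endothelial cells and platelets, read 437, 449 and 470 on day 7, against 844, 780 and 820 on day 3, a difference of -0.83 ± 0.07 (SE, 3 pairs), with a limma adjusted p = 0.0252. Pxdc1 read 574, 488 and 629 on day 7, against 1078, 988 and 964 on day 3, with -0.83 ± 0.09 (SE, 3 pairs), with a limma adjusted p = 0.0438. Esam was the one called among 10 tested endothelial genes, while 0.0291% of all genes fell. At an unadjusted p below 0.05 in limma, 3 of the 10 were lower, and 2 were lower without overlap. Over all genes these shares were 3.43% and 2.91%. The list had a median of -0.10 and a summed signal of 4725 to 5644 on day 7 and 5148 to 6577 on day 3. Its part in the Esam value was not tested. Lyve1, a marker of lymphatic and liver sinus endothelium, was dim and read 77.6, 81.9 and 75.5 on day 7, against 169, 129 and 147 on day 3 (limma adjusted p = 0.19). Pdia5, an isomerase of the secretory pathway, differed by -1.04, Neo1 by -0.84, Kcnj14 by -0.77, Sctr by -0.72, Tmem50b by -0.62 and Rasgrp3 by -0.53, which were lower in all 3 treatments without passing the test.

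Programmes of growth and metabolism had medians near 0. DNA replication (37 tested genes), mitosis (41), oxidative phosphorylation (42), ribosome biogenesis (26) and glycolysis (23) had medians of -0.06, 0.04, 0.04, -0.06 and 0.04, with 0 genes past the test in limma. At an unadjusted p below 0.05, 4 replication and 4 ribosome genes and 1 glycolysis gene were lower, and 3 mitosis and 2 glycolysis genes were higher. Over all genes 3.43% were lower and 9.5% higher at that p. Mitosis genes were the most uneven of these, with medians of -0.07, 0.21 and -0.04. In all, 31 of the 50 gene lists had a median within 0.1 of 0, 11 were above and 8 below, and 42 held 0 called genes.

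Heart grafts of the same treatments and days allow a test of where the change in T cells differed from the change in the graft. In a limma fit of the 12 arrays, the day 7 minus day 3 difference was higher in T cells than in hearts for 3969 of 21780 probe sets (18.2%) and lower for 4147 (19%), together 37.3%. Of the 24 genes called in T cells, 16 differed between the tissues, 7 with the higher and 9 with the lower difference in T cells.

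Cpa3 had nearly the same change in both tissues. Its heart signals were 942, 773 and 890 on day 7, against 286, 252 and 316 on day 3, and the T cell minus heart difference of the changes was -0.01 ± 0.11 (SE), with a limma adjusted p = 0.95. For Mcpt9 this difference was -0.02 ± 0.25 (SE), with a limma adjusted p = 0.955, and for Mcpt10 it was 0.22 ± 0.24 (SE), with a limma adjusted p = 0.499. Mcpt1 and Cma1 had higher means on day 7 in both tissues, by unequal amounts, with -1.21 ± 0.22 (SE), with a limma adjusted p = 0.00344 for Mcpt1 and 0.60 ± 0.18 (SE), with a limma adjusted p = 0.0304 for Cma1. A p that misses the threshold does not show that the changes were equal, and the standard errors give the room left.

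Several called genes of killer lymphocytes and chemokines had the larger difference in the grafts, and others did not. Gzma in hearts read 1872, 1814 and 2127 on day 7, against 90.8, 88.2 and 116 on day 3, and the difference of the changes was -2.63 ± 0.21 (SE), with a limma adjusted p = 6.42e-05. Klrc1 differed by -1.94, Ccl4 by -1.42 and Cd7 by -1.25, all with the smaller difference in T cells. Ccl3 differed the other way, by 0.77 (limma adjusted p = 0.0263). Ly49s7, LOC100362418, Klra5 and Serpinb6b, at 0.61, 0.11, 0.03 and -0.22, did not pass the test of the tissue difference. Scin in hearts read 1803, 1473 and 2559 on day 7, against 113, 105 and 133 on day 3, a difference of -3.12 ± 0.14 (SE), with a limma adjusted p = 9.8e-06. Ighl2 lay on opposite sides of 0 in T cells and hearts, with heart signals of 244, 186 and 522 on day 7, against 80.4, 97.9 and 237 on day 3 and -2.52 ± 0.17 (SE), with a limma adjusted p = 3.17e-05. Car1 differed by 2.19 ± 0.24 (SE), with a limma adjusted p = 3e-04, Pck2 by 1.69 ± 0.11 (SE), with a limma adjusted p = 2.86e-05 and Tsc22d3 by 1.44 ± 0.13 (SE), with a limma adjusted p = 0.000125, each with the rise in T cells and a lower mean in hearts.

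Among the 8 genes with the lowest tissue differences of all were the T cell chains Cd3e, Cd3d and Cd3g, at -4.45, -4.38 and -3.56, whose own T cell differences were -0.01, 0.10 and 0.03. The others were Ubd, a ubiquitin-like protein, at -5.05, Tnfrsf14 at -4.37, Ctsw at -4.12, the early activation marker Cd69 at -4.06 and the Fc receptor Fcgr3a at -3.90. The 8 with the highest values were the water channel Aqp1 at 3.56, Igf2 at 3.36, S100a9 at 2.83, Ahsp at 2.71, Cyp2e1 at 2.71, Hadh at 2.69, Tspan8 at 2.63 and S100a8 at 2.61. Of these 8, Aqp1 and Ahsp had T cell differences of 1.43 and 1.53, neither past the test in T cells (limma adjusted p = 0.296 and 0.211). For Aqp1 the T cell differences were uneven, at 1.32, 0.15 and 2.82. In hearts the mean differences were -2.12 for Aqp1 and -1.18 for Ahsp. Both genes are made by red cells, whose part in these values was not tested.

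**Figure D5:**
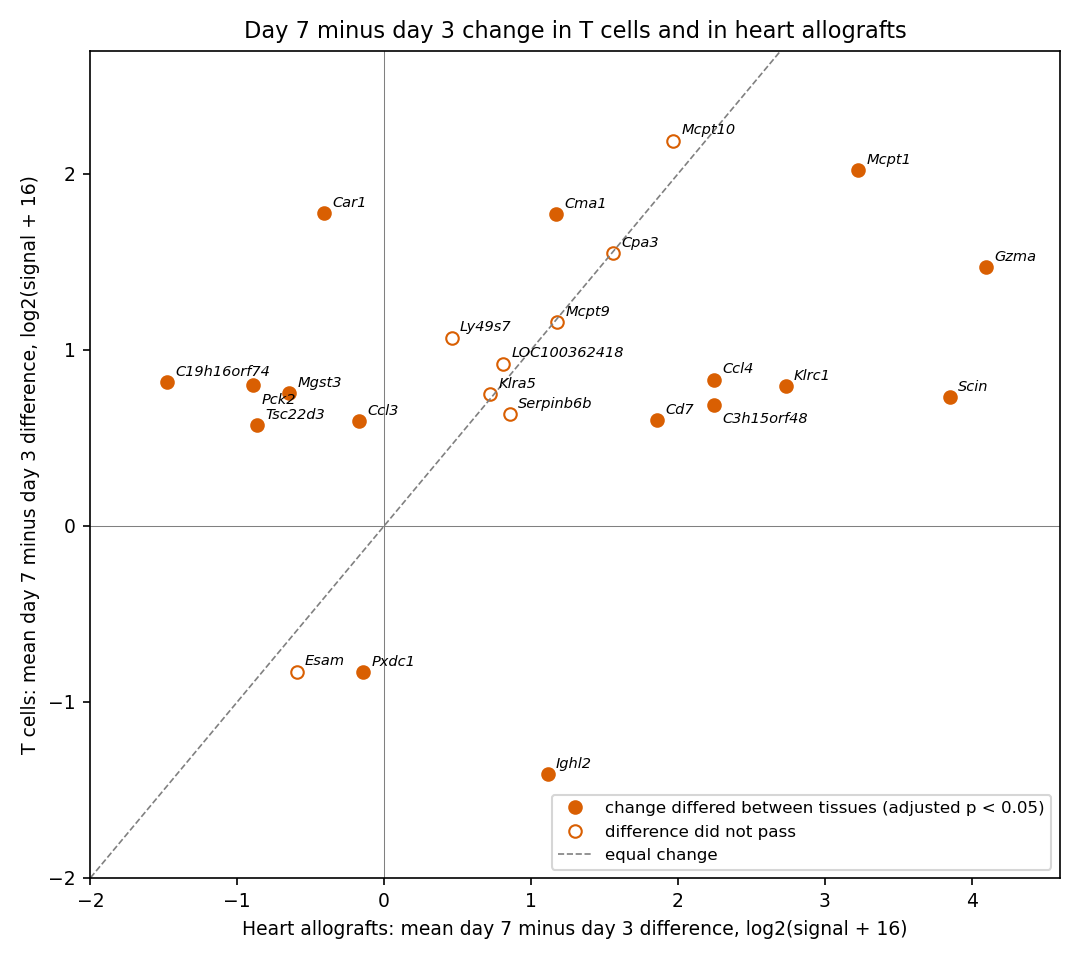
Mean day 7 minus day 3 difference of log2(signal + 16) for the 24 called genes, T cells on the y axis and heart allografts on the x axis, with a dashed line for equal change. Filled symbols mark the 16 genes whose change differed between tissues. Cpa3, Mcpt9 and Mcpt10 lie near the line, and Gzma and Scin lie far to its right.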

How the data were processed

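The authors deposited 1 table of probe set intensities for 18 rat arrays with 31099 probe sets. Per the labels' protocols, total RNA was converted to biotinylated cRNA. For the software and normalization behind the deposited intensities: not given in the sources used here. Array medians lay close together and some values were below 0. After removal of 57 control probe sets, values were set to at least 0, 16 was added and log2 was taken. Probe sets above their array's 40th percentile in at least 3 of the 6 arrays entered a limma fit (version 3.58.1, R 4.3.3; day plus treatment as block, trended eBayes with 4.52 prior and 2 residual degrees of freedom, Benjamini-Hochberg adjustment over all tested probe sets). The difference from hearts was an interaction in a fit of 12 arrays. The pairing comes from the treatment labels.

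The platform annotation gave 1 gene symbol to 20826 of 31042 probe sets, several to 436 and none to 9780. A gene was represented by its brightest probe set over the 6 arrays. The genes and lists were chosen with earlier results of these data known. Up to 15 genes per direction are named (those past the test, or, where fewer than 5 passed, those with the largest smallest difference of the 3 pairs), with up to 6 members of each list described, the 8 widest tissue differences per direction, the first 3 genes of marker lists, and a few further ones chosen after their values were seen. No array has a replicate, so the number of arrays limits the precision. The scripts were tested on simulated data. Alternatives changed the normalization, offset, filter, block, arrays and variance model.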

Additional observations from a re-analysis of the deposited data

Results flagged for a closer look

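The day 7 minus day 3 change differed between T cells and heart grafts for 8116 of 21780 probe sets in the limma interaction test of 12 arrays. Of the genes called in T cells, 16 were among them, each given here as the T cell minus heart difference of the log2 changes. The T cell change was the lower one for Scin (-3.12), Gzma (-2.63), Ighl2 (-2.52), Klrc1 (-1.94), C3h15orf48 (-1.56), Ccl4 (-1.42), Cd7 (-1.25), Mcpt1 (-1.21) and Pxdc1 (-0.69). It was the higher one for Cma1 (0.60), Ccl3 (0.77), Mgst3 (1.40), Tsc22d3 (1.44), Pck2 (1.69), Car1 (2.19) and C19h16orf74 (2.29). Among the 16, the heart mean lay on the other side of 0 from the T cell mean for Ighl2, Ccl3, Mgst3, Tsc22d3, Pck2, Car1 and C19h16orf74. Each tissue has 1 array per treatment and day, so these differences rest on 3 pairs per tissue.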

How the results depend on the processing

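The limma count of 28 probe sets (25 higher, 3 lower) was within 1.5 times under quantile normalization, offsets of 4 and 64, no filter, the fit of both tissues (36 in all) and robust hyperparameters. Centring on array medians gave 65 (54 higher, 11 lower). A filter at the 60th percentile gave 10 (8 higher, 2 lower). The fit of both tissues gave 6 lower. No call was left (0) without the treatment block, with 9 or 8 T cell arrays, or without the trend of the spread. These had 805, 1050, 1276 and 2279 unadjusted p below 0.05. Leaving out 1 pair gave between 0 and 162 calls, 0 to 79 higher and 0 to 83 lower: 0 without the cyclosporine pair, 25 without the untreated pair and 162 without the cyclosporine plus peptide pair. The tissue difference count of 8116 lay between 3030 and 7233 when 1 treatment was left out. No named call changed direction in these settings. The cause of these changes was not tested.

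Arrays were paired by treatment, which is the block of the fit. Each tissue, treatment and day has 1 array, so there is no replicate number to block on.

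Depth is that of a probe set's brightness: genes such as Mcpt8, Fcer1a and Hdc were too dim to test, so their values carry no p. With 3 pairs, the smallest p of an exact two-sided sign-flip permutation is 0.25, so no single gene can be tested that way.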
